A study of Mus musculus with 14 samples.

Results

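The 80 genes described here surround Clk3 on mouse chromosome 9. Clk3 lies on the minus strand at chr9:57750624-57765860 (GRCm38), and the genes were those that start between 52750000 and 62770000 with a mean of at least 20 reads per library. The stretch spans 10.02 Mb and 222 of its genes had a row in the tables. Of these, 140 were under the limit, 56 of them without a read in any library, and 2 (Clk3 and Loxl1) were left out by the rule. The genes nearest the limit were Rpp25 inside it (mean count 20.1) and Gm7435 outside it (17.9). All 80 passed the filter on low counts, among 15651 genes tested, and 75 of them encode proteins. Distances are from the start of Clk3 to the start of the gene, negative towards lower coordinates, and ran from -4.65 Mb (Ddx10) to 4.93 Mb (Itga11).

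A knockout allele is inherited with the chromosome around it. Genes close to a targeted locus can therefore differ between knockout and wild-type animals because a stretch of the donor strain's chromosome was carried along, or because the altered locus acts on its neighbours. Such differences are known as passenger and local effects. A gene that differs because the targeted gene's product is missing can lie anywhere in the genome. Genes of this stretch act in DNA damage signalling, protein degradation, mitochondrial metabolism, vesicle traffic and the cell surface of fibroblasts and pericytes, among other roles.

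Polyadenylated RNA from whole hearts of C57BL/6J mice was sequenced in 14 libraries. The groups were 4 wild-type sham, 4 Clk3 KO sham, 2 wild-type TAC and 4 Clk3 KO TAC. TAC is taken as transverse aortic constriction, an operation that loads the left ventricle. In each sham group 2 libraries came from mice of 11 weeks and 2 from mice of 10 weeks, and all TAC libraries came from mice of 10 weeks. The labels do not give the strain in which the allele was made, the exons it removes, the tissue in which it acts, sex or the duration of TAC. Nor do they say that the libraries are from separate animals, and p-values here reflect the spread among these libraries, part of which may be technical. Gene counts per library ranged from 11385818 to 20369637. All 7 ventricular myocyte markers were present, with a summed level of 26370 to 35380 CPM, and the 3 atrial markers together reached 5.05 CPM at most. The libraries thus showed little sign of atrial tissue, although the RNA is given as from whole hearts. CPM (read counts scaled to a common library size) is not corrected for gene length, so levels are compared between libraries and not between genes.

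Clk3 itself had reads in every library labelled knockout: 62.8 to 67.4 CPM in knockout sham against 73.2 to 96.0 in wild-type sham, and 50.8 to 64.9 CPM in knockout TAC. The library labelled wild-type TAC 1 had 54.2 CPM, inside the knockout range, and wild-type TAC 2 had 92.3 CPM. Gm8730, a pseudogene on another chromosome, ranged from 57.4 to 67.1 CPM over the 8 knockout libraries, but was at 1.26 to 1.63 CPM in 5 of the 6 wild-type libraries. The library labelled wild-type TAC 1 was the exception, with 66.8 CPM. It therefore goes against its genotype label in both genes, and values without it stand beside the calls that rest on it.

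Between the genotypes, 9 of the 80 genes differed over both surgeries. Atm, Acat1, Cul5 and Dmxl2 were higher in knockout hearts, by 1.19-fold to 1.42-fold, and all lay at the lower-coordinate end of the stretch, from -4.31 to -3.39 Mb. Cspg4, Ulk3, Islr, Cd276 and Itga11 were lower in knockout hearts, by 1.33-fold to 1.76-fold. The first 4 of these lay within 1 Mb of Clk3 and Itga11 at 4.93 Mb. The test was the edgeR quasi-likelihood test on counts of all 14 libraries, with the mean of the sham and TAC differences as the contrast and Benjamini-Hochberg adjustment over all genes at 0.05.

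That count of 9 is 11.2% of the 80 genes, against 6.41% of all genes tested. The 4 higher genes (5%) stood beside 2.93% of all genes, and the 5 lower genes (6.25%) beside 3.48%. Within a surgery the counts were smaller. In sham hearts 3 of the 80 passed (Atm, Dmxl2, Islr), against 0.888% of all genes, and after TAC 3 passed (Dmxl2, Islr, Itga11), against 1.48%. The sizes of the differences were like those elsewhere. The median absolute log2 difference was 0.147 over the 80 genes and 0.144 over all genes in sham, and 0.149 and 0.152 after TAC. Differences in the stretch ran from -0.48 to 0.58 (log2) in sham and from -1.33 to 0.58 after TAC. Both counts moved when single libraries were left out. The sham count was 0 without any of wild-type sham 3 and 4 and knockout sham 2 and 3, and 6 without wild-type sham 1. The sham count over all genes tested moved as well, from 139 of 15651 with all libraries. It was 8, 17, 11 and 12 without the libraries named first, in that order, and 531 of 15602 without wild-type sham 1. The TAC count was 1 without the library labelled wild-type TAC 1, and the count over both surgeries was then 8, 6 of them among the 9. These 6 were Atm (0.57 on the log2 scale), Cul5 (0.35), Dmxl2 (0.37), Islr (-0.55), Ulk3 (-0.67) and Itga11 (-1.01), with edgeR adjusted p from 0.00254 to 0.0179. The other 3 had 0.28 (Acat1), -0.37 (Cspg4) and -0.47 (Cd276), with adjusted p from 0.0534 to 0.0906.

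Reads that fell in no annotated feature were more frequent in knockout sham (17.1% to 19.0%) than in wild-type sham (14.3% to 17.6%), with a small overlap of the ranges. After TAC their share was 10.7% and 14.9% in wild type and 12.3% to 14.3% in knockout. With this share as a covariate, 4 of the 80 genes passed in sham (188 of 15651 genes tested) and 3 after TAC (208 of 15651). Over both surgeries 7 of the 80 passed (847 of 15651). Calls lost were Islr in sham (-0.43, edgeR adjusted p = 0.0691), Dmxl2 after TAC (0.39, adjusted p = 0.0639), and Acat1 and Cd276 over both surgeries (0.23 and -0.55, adjusted p = 0.0841 and 0.0506).

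**Figure D1:**
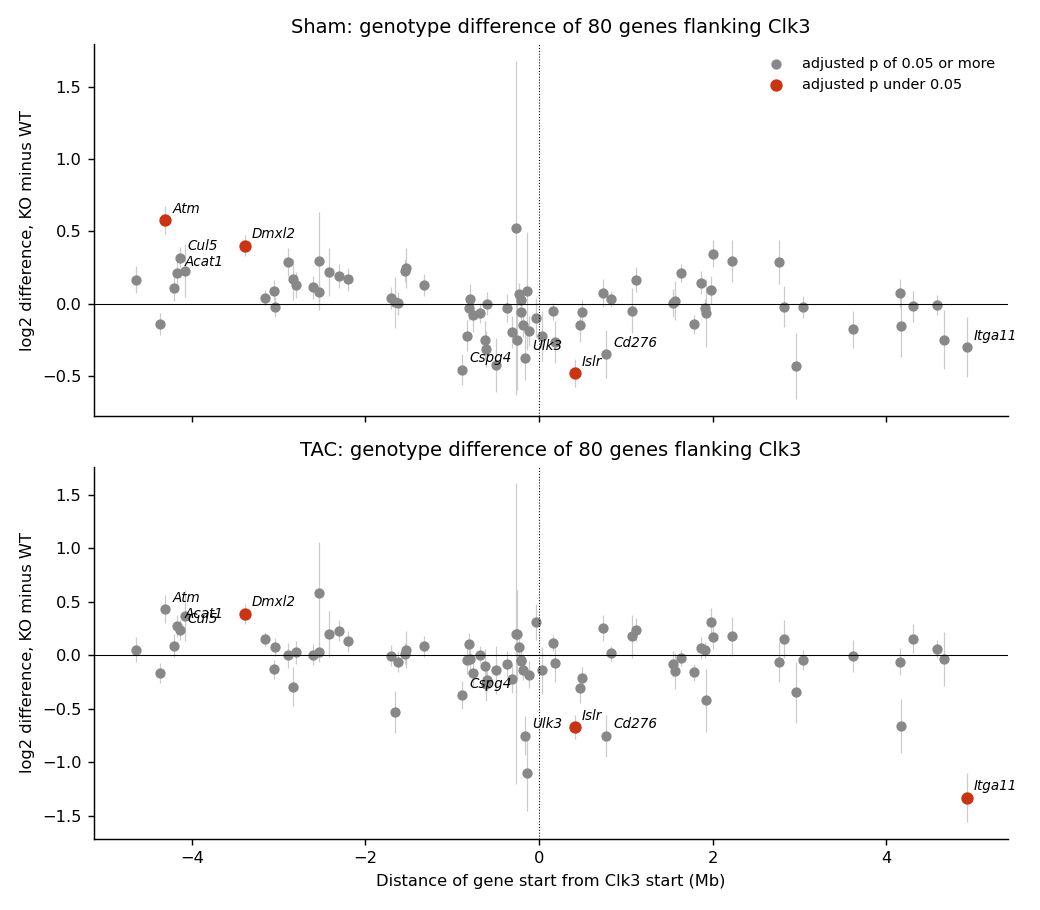
Log2 difference of knockout minus wild type (edgeR estimate, bars are 1 SE) against the distance of each gene's start from the Clk3 start in Mb, for 80 genes in sham hearts (upper panel) and after TAC (lower panel). Red points passed adjusted p of 0.05 in that surgery, and names mark the 9 genes that passed over both surgeries. In both panels Atm and Dmxl2 stand above 0 on the left and Islr below 0 near the centre, while most genes next to Clk3 lie close to 0 or have wide bars.

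The nearest neighbours of Clk3 did not pass the test. Edc3, a factor of mRNA decapping, starts at -0.04 Mb on the plus strand and runs into Clk3, so that 1284 of its 5804 exon bases also lie in Clk3 exons on the opposite strand. It was at 14.4, 19.9, 12.5 and 17.5 CPM in wild-type sham and at 15.1, 13.7, 14.9 and 16.6 in knockout sham. With TAC, wild type had 12.4 and 15.7 CPM and knockout 15.4, 17.4, 19.2 and 17.2. The groups overlapped in both surgeries, and the log2 difference over both was 0.11 ± 0.11 (SE, edgeR adjusted p = 0.586). The share of its reads set aside as ambiguous was 0.0%, although its exons overlap those of Clk3.

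Arid3b, a DNA-binding protein that starts 0.04 Mb above Clk3, reached 7.62 CPM in wild-type sham and 6.05 in knockout sham, and the groups overlapped (-0.18 ± 0.14 over both surgeries, edgeR adjusted p = 0.453). Csk, the kinase that restrains Src kinases, overlapped in sham at 21.6 to 30.8 against 21.4 to 26.6 CPM, and not after TAC at 35.7 and 37.0 against 29.9 to 34.2 (edgeR adjusted p = 0.175 over both surgeries). Scamp2, a carrier protein of secretory membranes, and the ubiquitin-like protein gene Ubl7 had differences of -0.14 ± 0.06 and 0.03 ± 0.05 over both surgeries (edgeR adjusted p = 0.175 and 0.744). Sema7a and Pml, a membrane semaphorin and the scaffold of PML nuclear bodies, had differences of -0.17 ± 0.12 and -0.23 ± 0.09 (edgeR adjusted p = 0.408 and 0.136). Lman1l, a lectin-like cargo receptor, was near 1 CPM in all sham libraries (0.654 to 1.19 in wild type, 0.705 to 1.39 in knockout). Of the 5 nearest genes on each side of Clk3, Ulk3 and Islr passed.

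**Figure D2:**
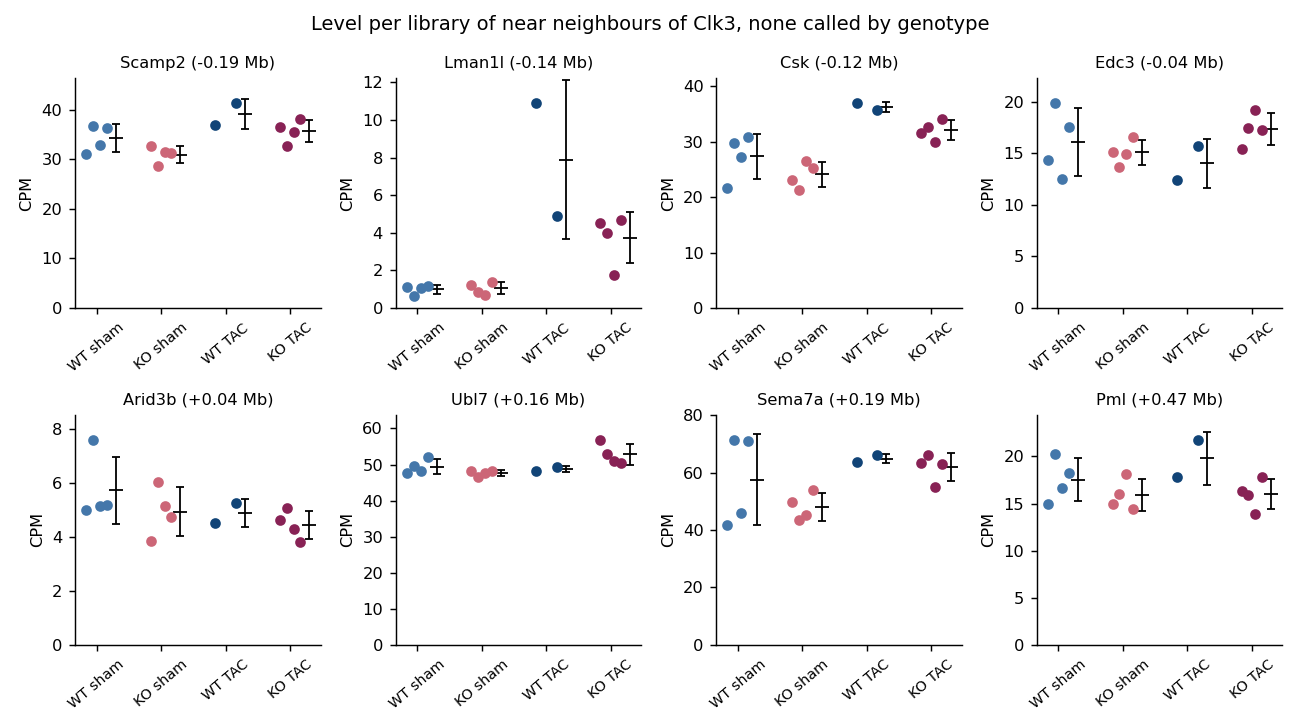
CPM per library (points) with group mean and SD (bars at the right of each group) for 8 of the 10 genes nearest Clk3, in 4 wild-type (WT) sham, 4 knockout (KO) sham, 2 WT TAC and 4 KO TAC libraries. Axes start at 0. Genotypes overlap in sham hearts for all 8 genes, and Lman1l rises with TAC from about 1 CPM.

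Islr showed the smallest adjusted p of the genes near Clk3. It encodes a secreted or membrane-bound leucine-rich repeat protein of mesenchymal cells and lies at chr9:58156268-58204306, minus strand, 0.41 Mb from Clk3. Wild-type sham libraries had 49.6, 41.5, 53.1 and 50.3 CPM, and knockout sham libraries 39.9, 30.4, 32.1 and 37.1. Every knockout value was below every wild-type value. The TAC libraries had 71.2 and 66.5 CPM in wild type against 41.0, 41.0, 46.1 and 45.0 in knockout, again without overlap. The log2 differences were -0.48 ± 0.10 in sham (SE, edgeR adjusted p = 0.0333) and -0.67 ± 0.11 after TAC (adjusted p = 0.0073). Without the library labelled wild-type TAC 1 the TAC difference was -0.62 (edgeR adjusted p = 0.104). Over both surgeries it was -0.57 ± 0.07 (adjusted p = 0.00102), and it passed in all 23 alternative analyses (-0.62 to -0.49).

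The Islr promoter is shown because the gene was called in sham, after TAC and over both surgeries. The 250 bases before its RefSeq start on the minus strand, chr9:58158555-58158804, lie inside the longer GENCODE gene and are printed with each CpG in capitals.

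Islr: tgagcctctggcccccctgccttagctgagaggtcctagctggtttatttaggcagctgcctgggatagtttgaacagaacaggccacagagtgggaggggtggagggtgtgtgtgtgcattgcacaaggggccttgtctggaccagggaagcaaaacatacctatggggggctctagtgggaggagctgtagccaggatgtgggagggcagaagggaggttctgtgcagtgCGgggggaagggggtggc

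This window has 1 CpG and a GC content of 59.6%. It was searched on both strands for 3 motifs (the sequence GGGCGG, the sequence CCAAT and the sequence TATAAA), and none was in it.

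Cspg4, the NG2 proteoglycan of pericytes and glial progenitors, lies at -0.89 Mb (chr9:56865033-56899870, plus strand). It was at 43.7, 53.2, 51.5 and 62.5 CPM in wild-type sham and at 43.5, 33.5, 39.2 and 37.8 CPM in knockout sham. In the TAC libraries wild type had 66.7 and 58.8 CPM, and knockout 50.7, 45.8, 43.5 and 53.9. The groups did not overlap in either surgery, by a narrow margin in sham. The difference was -0.46 ± 0.11 in sham and -0.37 ± 0.13 after TAC, and neither passed (edgeR adjusted p = 0.0569 and 0.185). The TAC value was -0.28 without the library labelled wild-type TAC 1 (adjusted p = 0.521). Over both surgeries it was -0.41 ± 0.09 (edgeR adjusted p = 0.0123), and -0.37 without the library labelled wild-type TAC 1 (adjusted p = 0.0534).

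Ulk3 and Cd276 followed the same direction with more spread. Ulk3, a kinase of autophagy and hedgehog signalling at -0.16 Mb, was at 15.2 to 23.5 CPM in wild-type sham and 13.6 to 15.9 in knockout sham, and the groups overlapped. With TAC the 2 wild-type values were 25.7 and 35.6 CPM, above the knockout range of 14.5 to 21.5. Its difference over both surgeries was -0.56 ± 0.12 (edgeR adjusted p = 0.0144), and -0.43 without wild-type TAC 2 (adjusted p = 0.0675). Cd276, the B7-H3 immune checkpoint ligand at 0.77 Mb, was at 6.08 to 7.57 CPM in wild-type sham and 4.75 to 6.34 in knockout sham. With TAC the wild-type values of 11.4 and 9.19 CPM were above the knockout range of 4.56 to 7.99. Its difference was -0.55 ± 0.13 (edgeR adjusted p = 0.0218), and -0.47 without the library labelled wild-type TAC 1 (adjusted p = 0.0906) and -0.53 without knockout TAC 2 (adjusted p = 0.0501).

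Itga11 encodes the collagen-binding integrin alpha-11 of fibroblasts and is the last gene of the stretch (4.93 Mb). In sham it overlapped between genotypes, with 3.98, 3.37, 3.39 and 4.80 CPM in wild type against 3.72, 2.83, 2.89 and 3.14 in knockout. After TAC the 2 wild-type libraries differed from each other, at 6.98 and 13.6 CPM, and both were above the 4 knockout libraries (4.25, 3.72, 4.67 and 3.77). The TAC difference was -1.33 ± 0.23 (edgeR adjusted p = 0.00754). Without wild-type TAC 2 it was -0.77 (adjusted p = 0.111), and without the library labelled wild-type TAC 1 it was -1.73 (adjusted p = 0.00161). A fit to the TAC libraries alone gave -1.33 (adjusted p = 0.0826). The difference between the 2 surgeries was -1.03 (log2) and did not pass (edgeR adjusted p = 0.49).

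Fibroblast marker levels moved with the groups after TAC. The 5 fibroblast markers summed to 869 to 1109 CPM in wild-type sham, 831 to 939 in knockout sham, 1662 to 1993 in wild-type TAC and 1047 to 1237 in knockout TAC. None of the 5 passed between genotypes in sham, and the same number, 2, passed after TAC and over both surgeries. The 4 smooth muscle and pericyte markers overlapped between genotypes, at 1346 to 1518 and 1353 to 1534 CPM in sham and 1262 to 1757 and 1219 to 1672 after TAC, and 1 of the 4 passed over both surgeries. Of other lists, 3 of 4 macrophage markers and 2 of 7 ventricular myocyte markers passed over both surgeries, and none of either within a surgery. The macrophage markers summed to 98.1 to 117 CPM in wild-type sham and 73.7 to 99.9 in knockout sham. In RNA of mixed heart cells, fewer cells of a type and less RNA per cell cannot be told apart. The part of fibroblast content in the Islr, Cd276 and Itga11 results was not tested.

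The genes higher in knockout hearts lay together between -4.31 and -3.39 Mb. Atm, the kinase that signals DNA double-strand breaks, lies on the minus strand at chr9:53439149-53536740. Wild-type sham hearts had 17.5, 20.1, 17.7 and 18.0 CPM, and knockout sham hearts 26.8, 30.1, 27.4 and 25.4. With TAC the wild-type levels were 16.5 and 14.1 CPM, and those of the knockouts 16.6, 23.1, 21.9 and 20.6. All knockout libraries were higher in both surgeries, after TAC by a narrow margin at the closest pair. The difference was 0.58 ± 0.10 in sham (SE, edgeR adjusted p = 0.0203) and 0.43 ± 0.13 after TAC (adjusted p = 0.117). Without the library labelled wild-type TAC 1 the TAC value was 0.55 (edgeR adjusted p = 0.204). Over both surgeries it was 0.51 ± 0.08 (adjusted p = 0.00314).

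Atm shares its upstream sequence with Npat, a coactivator of histone genes that is transcribed the other way. The 2 RefSeq starts are 375 bases apart, and the shared part is shown because Atm differed and Npat did not pass. The 250 bases before the Npat start (plus strand, chr9:53536797-53537046) are printed with the 125 bases that also lie within 250 bases of the Atm start in capitals.

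Npat: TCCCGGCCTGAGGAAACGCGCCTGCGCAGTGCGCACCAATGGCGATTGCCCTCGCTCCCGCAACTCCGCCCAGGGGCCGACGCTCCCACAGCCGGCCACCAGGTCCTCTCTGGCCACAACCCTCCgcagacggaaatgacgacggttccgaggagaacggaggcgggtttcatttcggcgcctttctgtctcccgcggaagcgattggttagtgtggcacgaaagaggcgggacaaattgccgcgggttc

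Npat had a log2 difference of 0.11 ± 0.09 in sham and 0.10 ± 0.07 over both surgeries (edgeR adjusted p = 0.544 and 0.418). Whether the difference of Atm differs from that of Npat was not tested. The 250 bases before the Atm start hold GGGCGG and CCAAT on at least 1 strand and have a GC content of 66.0%.

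Acat1, a mitochondrial thiolase of ketone body and isoleucine metabolism, was at 808, 642, 750 and 645 CPM in wild-type sham and at 826, 836, 817 and 820 in knockout sham. With TAC it stood at 602 and 551 CPM in the wild-type libraries, against 763, 740, 637 and 656 in the knockouts. The groups did not overlap in either surgery. The difference was 0.25 ± 0.07 over both surgeries (edgeR adjusted p = 0.037). This call was lost without any of 11 of the 14 libraries (edgeR adjusted p up to 0.123 over the alternatives). Cul5, the scaffold of a cullin-RING ubiquitin ligase, was at 94.6 to 109.8 CPM in wild-type sham and 122.7 to 134.3 in knockout sham, without overlap. With TAC the ranges overlapped (82.8 and 100.8 CPM against 99.6 to 115.1). Its difference over both surgeries was 0.28 ± 0.06 (edgeR adjusted p = 0.0147), and 0.21 without wild-type TAC 2 (adjusted p = 0.0672). Gm16124, an antisense gene that is itself among the 80, shares 110 exon bases with Cul5. Whether the counting used strand is not stated by the labels, and reads of such pairs may not be fully separated. Of the Cul5 reads, 0.03% were set aside as ambiguous.

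Dmxl2 (rabconnectin-3 alpha) is a large WD-repeat protein that regulates the vacuolar proton pump. It lies on the minus strand at chr9:54365158-54501626. Its level was 60.4, 74.0, 62.1 and 72.3 CPM in the wild-type sham libraries, and 87.0, 94.0, 89.5 and 85.1 in the knockout sham libraries. Under load the wild-type libraries had 60.3 and 65.1 CPM and the knockouts 76.7, 86.4, 82.7 and 82.3. Knockout libraries were higher in both surgeries without overlap. The differences were nearly equal, at 0.40 ± 0.07 in sham and 0.39 ± 0.09 after TAC (edgeR adjusted p = 0.0231 and 0.0497), and the value over both was 0.40 ± 0.06 (adjusted p = 0.00198). Without the library labelled wild-type TAC 1 the TAC difference was 0.34 (adjusted p = 0.28), and the TAC call held in 7 of 24 alternative analyses. The value over both surgeries passed in all 23 alternative analyses (0.33 to 0.50).

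The Dmxl2 promoter is printed beside that of Islr because the 2 genes kept their calls over both surgeries in every alternative and differ in upstream CpG content. It covers the 250 bases before the RefSeq start on the minus strand, chr9:54501627-54501876, with each CpG in capitals.

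Dmxl2: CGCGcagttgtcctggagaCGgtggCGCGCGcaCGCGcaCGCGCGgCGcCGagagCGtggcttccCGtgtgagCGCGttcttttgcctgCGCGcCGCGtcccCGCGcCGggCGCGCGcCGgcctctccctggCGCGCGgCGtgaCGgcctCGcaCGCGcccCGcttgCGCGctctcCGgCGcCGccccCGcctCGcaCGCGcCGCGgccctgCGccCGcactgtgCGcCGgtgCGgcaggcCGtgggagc

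This window holds 54 CpG and has a GC content of 81.2%, against 1 CpG for Islr. It contains GGGCGG and neither CCAAT nor TATAAA. Of the 80 genes, 70 had a RefSeq promoter window (79 windows). GGGCGG was in 60.8% of these windows, against 32.7% of 32851 windows genome-wide. CCAAT was in 38.0% against 33.8%, and TATAAA in 6.3% against 12.4%. The median GC content was 61.6% in the windows of the stretch and 52.4% genome-wide. The genome-wide windows were not chosen by read count, whereas the 80 genes were. These shares therefore cannot be read as a trait of the stretch, and the part of read level and GC content in them was not tested.

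**Figure D3:**
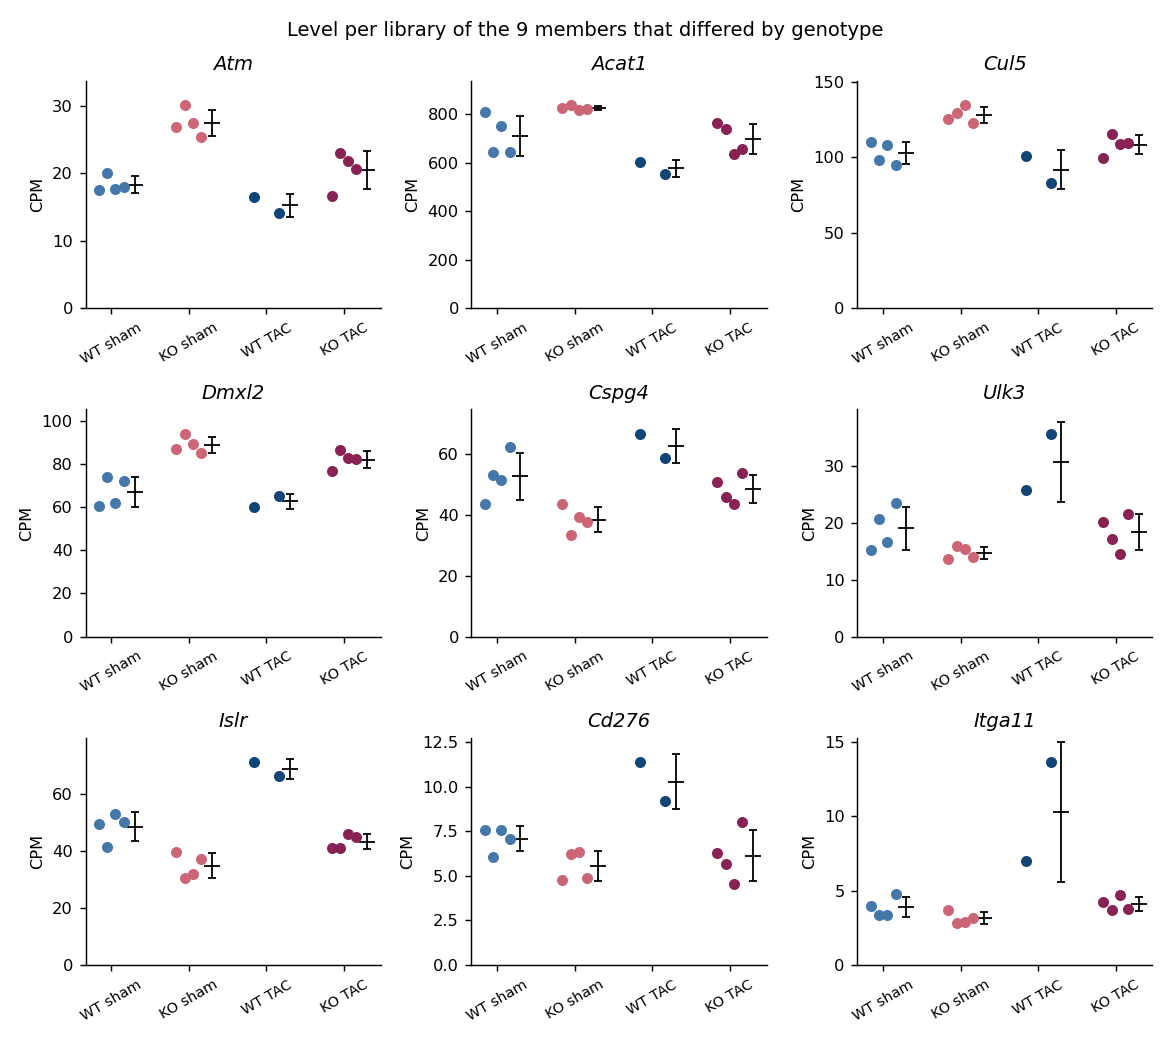
CPM per library (points) with group mean and SD (bars at the right of each group) for the 9 genes called between genotypes over both surgeries, in 4 WT sham, 4 KO sham, 2 WT TAC and 4 KO TAC libraries. Axes start at 0. Atm, Acat1, Cul5 and Dmxl2 are higher in KO, the other 5 genes are lower, and the 2 WT TAC values of Itga11 lie far apart.

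Genotypes were also compared by whether their libraries overlapped. In sham the libraries of 11 of the 80 genes did not overlap (13.8%, against 11.5% of all genes), 8 with knockout higher and 3 with knockout lower. After TAC 26 did not (32.5%, against 21.8%), 10 higher and 16 lower. Wild-type TAC 2 alone lay outside the range of the 4 knockout TAC libraries for 48 of the 80 genes (60%) and for 54.2% of all genes. Acat1, Cspg4, Atm, Islr and Dmxl2 did not overlap in either surgery in the same direction, which is 6.25% of the 80 genes against 3.57% of all genes. By the exact two-sided permutation test on CPM these 5 had p = 0.0286 in sham, the smallest that 4 against 4 libraries allow. The choice of genes without overlap fixes that value, so it adds no support. After TAC these 5 had an exact p = 0.0667 or 0.133, and 2 against 4 libraries cannot go below 0.0667. Those values too are limited by the choice of genes without overlap.

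None of the 80 genes passed in the test of whether the genotype difference changed with surgery (0.0192% of all genes passed). With an unadjusted p under 0.05 there were 3 by edgeR (against 6.53% of all genes) and 3 by DESeq2. DESeq2 also called none of the 80, and 37 of 19796 genes tested. The library labelled wild-type TAC 1 lay on the wild-type side of all knockout TAC libraries for 8 of the 9 genes called between genotypes, the exception being Cul5. Those 9 genes were called with this library counted as wild type, so the count cannot show whether its label is right. Its Clk3 and Gm8730 levels lay with the knockouts.

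Calls were not densest next to Clk3, though the counts in each class are small. Of 31 genes within 1 Mb, 4 passed over both surgeries (12.9%), all of them lower in knockout. These were 2 of 22 on the lower-coordinate side (9.09%) and 2 of 9 on the higher-coordinate side (22.2%). Of 21 genes between 1 and 2.5 Mb, none passed. An unadjusted p under 0.05 by edgeR was found in 6 of these 21, and in 24.2% of all genes tested. Of 28 genes beyond 2.5 Mb, 5 passed (17.9%), 4 of them among the 17 genes on the lower-coordinate side (23.5%). On chromosome 9 outside the stretch, 3 of 107 genes before it passed (2.8%), 7 of 87 after it (8.05%) and 40 of 607 in the rest (6.59%). Spearman's rho between the absolute difference over both surgeries and the distance from Clk3 was -0.01 across the 80 genes. These genes share the same libraries, so this is a description.

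The sign of the difference changed along the stretch. The median log2 difference over both surgeries was -0.13 within 1 Mb, where 7 of 31 genes were higher in knockout. It was 0.11 from 1 to 2.5 Mb (15 of 21 higher) and 0.06 beyond 2.5 Mb (19 of 28 higher). On the lower-coordinate side beyond 2.5 Mb, 14 of 17 genes were higher in knockout (median 0.097). The higher-coordinate side beyond 2.5 Mb did not share this, with 5 of 11 higher and a median of -0.035.

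The GC content of the genes changed along the stretch too. The longest transcript of each gene had a median GC content of 54.9% within 1 Mb, 48.5% from 1 to 2.5 Mb and 45.9% beyond. Beyond 2.5 Mb it was 45.0% on the lower-coordinate side and 52.5% on the higher-coordinate side. Across the 80 genes, Spearman's rho of GC content with the genotype difference was -0.61 in sham, -0.40 after TAC and -0.55 over both. Across 15622 genes with a GC value it was -0.52, -0.18 and -0.39. GC-rich transcripts thus tended to be lower in knockout sham libraries throughout the genome. Of the called genes, the 4 higher ones had a GC content of 39.0% to 45.5% and the 5 lower ones of 54.1% to 59.2%. Within single libraries, the rho of each gene's deviation from its mean with GC content was -0.53 to -0.43 over the 80 genes in the 4 knockout sham libraries. In the wild-type sham libraries it was -0.18, 0.19, 0.01 and 0.50, so the relation varied among libraries of 1 group as well.

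With a smooth correction for GC content in each library, chosen after the data were seen, the differences became smaller. None of the 80 genes then passed in sham (12 at an unadjusted p under 0.05 by edgeR; 0.0192% of all genes passed). After TAC 3 passed (1.68% of all genes), and over both surgeries 6 passed (3.8% of all genes): Itga11, Ulk3, Cspg4, Atm, Islr and Dmxl2. Acat1, Cul5 and Cd276 did not (edgeR adjusted p = 0.0803, 0.0755 and 0.0699). The corrected log2 differences over both surgeries were 0.42 for Atm, 0.33 for Dmxl2, -0.30 for Cspg4, -0.49 for Ulk3, -0.48 for Islr and -0.72 for Itga11. The median within 1 Mb of Clk3 went from -0.13 to -0.06 and that from 1 to 2.5 Mb from 0.11 to 0.08. Beyond 2.5 Mb it went from 0.06 to 0.02. Within 1 Mb, 7 of 31 genes were still higher in knockout. The counts were 13 of 21 from 1 to 2.5 Mb and 19 of 28 beyond (13 of 17 on the lower-coordinate side, 6 of 11 on the higher). A gene's true difference that goes with GC content is removed by the same correction.

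**Figure D4:**
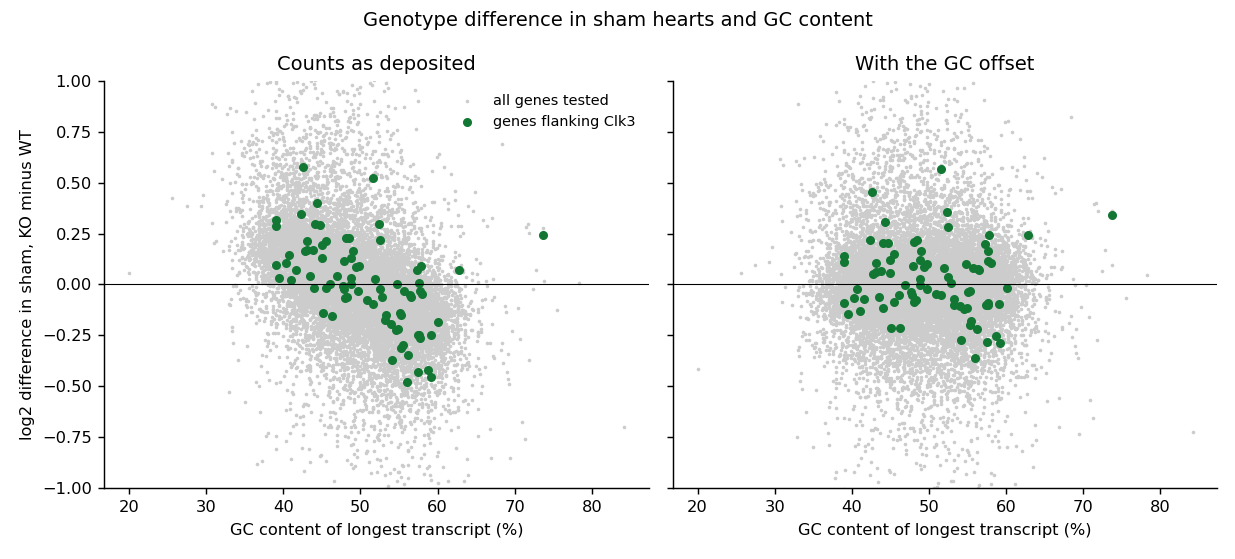
Log2 difference of knockout minus wild type in sham hearts against the GC content of the longest transcript in percent, from the counts as deposited (left) and with a GC correction for each library (right). Green points are the 80 genes flanking Clk3, grey points all genes with a GC value, and the vertical axis is limited to -1 to 1, which holds all 80. The downward slope on the left is shared by green and grey points and is mostly gone on the right.

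By role, the genes that passed over both surgeries fell in several lists. For comparison, 3.48% of all genes tested were lower in knockout and 2.93% higher, which is under 1 gene in a list of this size. Of 13 genes of the list of kinases, phosphatases and signalling, 3 were lower in knockout over both surgeries (Islr, Itga11, Cspg4). The other 10 did not pass, and the median difference of the 13 was -0.12. Among 11 genes of mitochondrial and intermediary metabolism, Acat1 was higher and 10 did not pass, Etfa (an electron transfer flavoprotein subunit) with 0.21 ± 0.06 (edgeR adjusted p = 0.0596). Of 9 genes of ubiquitin and the proteasome, Cul5 was higher and Ulk3, an autophagy kinase placed in that list, lower. Of 11 genes of DNA repair, chromatin and transcription, Atm was higher, and the base excision glycosylase Neil1 had -0.29 ± 0.10 (edgeR adjusted p = 0.09). The median of all genes tested was 0.00.

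The 11 genes of lysosome, Golgi and membrane traffic included none that passed by edgeR over both surgeries. By edgeR 3 of them had an unadjusted p under 0.05, against 24.2% of all genes tested. The lysosomal hexosaminidase subunit Hexa had -0.15 ± 0.05 (edgeR adjusted p = 0.0884) and Scamp5 -0.21 ± 0.09 (adjusted p = 0.16). The 9 genes of RNA processing and translation included none that passed over both surgeries and none with an unadjusted p under 0.05 by edgeR. In sham 1 of them had an unadjusted p under 0.05 by edgeR (against 18% of all genes), and Dnaja4 was called for TAC in both genotypes. Among them, Ireb2, which senses iron, did not overlap in sham (68.0 to 87.5 against 94.4 to 101.4 CPM) and had a log2 difference of 0.00 after TAC. Larp6, which binds collagen mRNAs, had -0.39 ± 0.18 (edgeR adjusted p = 0.209). The pacemaker channel gene Hcn4 (0.06 ± 0.13) and Tmem266 (0.21 ± 0.13) were the 2 channel genes measured, and neither passed (edgeR adjusted p = 0.809 and 0.366). No gene of the cytochrome P450 and retinoid list reached the count limit. The lists held 66 of the 80 genes.

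The split of reads between coding and untranslated parts gave a second readout of the same genes. Of 61 genes with enough reads in both parts, none passed between genotypes over both surgeries by limma, where 0.083% of 9640 genes did. An unadjusted p under 0.05 by limma was found in 4 of the 61 and in 580 of the 9640. Atm had the smallest p, with an untranslated share of 10.5% to 17.9% in wild-type sham and 9.2% to 12.6% in knockout sham (limma adjusted p = 0.46).

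The surgery changed 15 of the 80 genes in at least 1 genotype (18.8%, against 19% of all genes). In wild-type hearts 11 changed with TAC (13.8%, against 12.2% of all genes), 9 up (6.91% of all genes rose) and 2 down (5.3% fell). In knockout hearts 11 changed (against 13% of all genes), 6 up (6.73% of all genes rose) and 5 down (6.26% fell). Hexa, Lman1l, Dnaja4, Csk, Uaca and Islr rose and Neo1 fell in both genotypes, 7 of 11 in each. These 7 are 8.75% of the 80 genes, against 6.17% of all genes called in the same direction in both genotypes. The wild-type count was 5 without the library labelled wild-type TAC 1. The genes that then passed in wild type were Lman1l (4.95-fold), Itga11 (3.51-fold), Pstpip1 (2.12-fold), Ulk3 (1.87-fold) and Dnaja4 (1.38-fold), with edgeR adjusted p from 0.000175 to 0.0329. The 6 that did not pass had 1.37-fold (Islr), 1.31-fold (Hexa), 1.3-fold (Csk) and 1.16-fold (Uaca), and log2 changes of -0.27 (Neo1) and -0.19 (Idh3a), with adjusted p from 0.0533 to 0.371. Of the 7 genes called in both genotypes, Lman1l and Dnaja4 were then still called in wild type. The knockout count was 3 without knockout sham 2, 2 with age as a covariate, and 0 with 10-week libraries alone (12 at an unadjusted p under 0.05 by edgeR). It was also 0 with the share of reads outside annotated features as a covariate (12 at an unadjusted p under 0.05 by edgeR). That share was 17.1% to 19.0% in knockout sham and 12.3% to 14.3% in knockout TAC.

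Lman1l had the largest rise with TAC among the 80 genes, in each genotype. It rose from 0.654 to 1.19 CPM in wild-type sham to 10.9 and 4.89 in wild-type TAC, and from 0.705 to 1.39 CPM in knockout sham to 4.53, 3.99, 1.74 and 4.69 in knockout TAC. The rises were 7.98-fold and 3.51-fold (edgeR adjusted p = 0.000146 and 0.00584). Every TAC library was above every sham library of its genotype. Dnaja4, a co-chaperone of Hsp70, rose from 172.9 to 183.0 CPM to 274.9 and 245.1 in wild type and from 174.7 to 194.4 to 218.3 to 271.7 in knockout (1.46-fold and 1.26-fold, edgeR adjusted p = 0.000877 and 0.0109). It shares 1581 exon bases with Wdr61 on the opposite strand, and 0.07% of its reads were set aside as ambiguous.

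Hexa rose 1.3-fold in wild type and 1.28-fold in knockout (edgeR adjusted p = 0.00508 and 0.00374). Csk rose 1.32-fold and 1.33-fold, and Uaca, a regulator of apoptosis, 1.23-fold and 1.21-fold (edgeR adjusted p between 0.0189 and 0.042). Itga11 rose 2.66-fold in wild type (edgeR adjusted p = 0.000866) and was at 1.3-fold in knockout (adjusted p = 0.241). Pstpip1, a cytoskeletal adaptor of blood cells, rose 2.08-fold in wild type, from 1.70 to 2.21 CPM to 3.91 and 4.08, and Ulk3 1.61-fold (edgeR adjusted p = 0.00273 and 0.0201). The 4 macrophage markers summed to 98.1 to 117 CPM in wild-type sham and 132 to 168 in wild-type TAC, and their part in the rise of Pstpip1 was not tested. Islr rose 1.42-fold in wild type and 1.24-fold in knockout (edgeR adjusted p = 0.00839 and 0.0438).

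Of the genes that fell with TAC, Neo1, the netrin receptor neogenin, went from 81.0 to 107.1 CPM to 65.2 and 76.8 in wild type and from 101.9 to 107.6 to 77.1 to 92.6 in knockout. The log2 changes were -0.39 ± 0.11 and -0.31 ± 0.09 (edgeR adjusted p = 0.028 and 0.0283). Idh3a, a subunit of the mitochondrial isocitrate dehydrogenase, fell 1.16-fold in wild type (edgeR adjusted p = 0.0447). Among the genes that fell in knockout were Atm (1.33-fold), Cul5 (1.18-fold) and Hykk, a lysine-pathway kinase (1.4-fold) (edgeR adjusted p between 0.0163 and 0.0444). None of these differences between genotypes in the TAC effect passed the test.

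A pseudogene, named after its values were seen, had reads in some libraries of every group and almost none in the others. Gm6166 (chr9:57483963-57484371, -0.27 Mb) is closest in sequence to Fabp5, which encodes a fatty acid binding protein. Its counts were 3, 2, 92 and 94 in wild-type sham and 73, 1, 2 and 137 in knockout sham. With TAC the library labelled wild-type TAC 1 had 99 and wild-type TAC 2 had 1, and the knockouts had 57, 83, 1 and 105. Hence 6 libraries had at most 3 reads and 8 had 57 to 137, with no library between. Counts of Fabp5 ranged from 524 to 1166 and showed no such split. The difference between genotypes was not called in either surgery.

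The first 60 bases of Gm6166 and the aligned bases of the Fabp5 transcript are shown because the nearly identical sequences decide which gene a read is assigned to. Both begin at the ATG of Fabp5, and the base that differs is in capitals.

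Gm6166: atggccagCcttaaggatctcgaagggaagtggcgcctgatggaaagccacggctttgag

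Fabp5: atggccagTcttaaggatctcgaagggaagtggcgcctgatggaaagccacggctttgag

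Over the 409 bases of Gm6166, 402 are identical to Fabp5, 5 are substitutions and 2 are extra bases. With the Fabp5 base first, positions counted from the first base of Gm6166, and the Gm6166 base last, the substitutions are T9C, T189C, C263T, G343C and T395C. A read within this stretch that spans neither these positions nor the extra bases fits both genes.

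**Figure D5:**
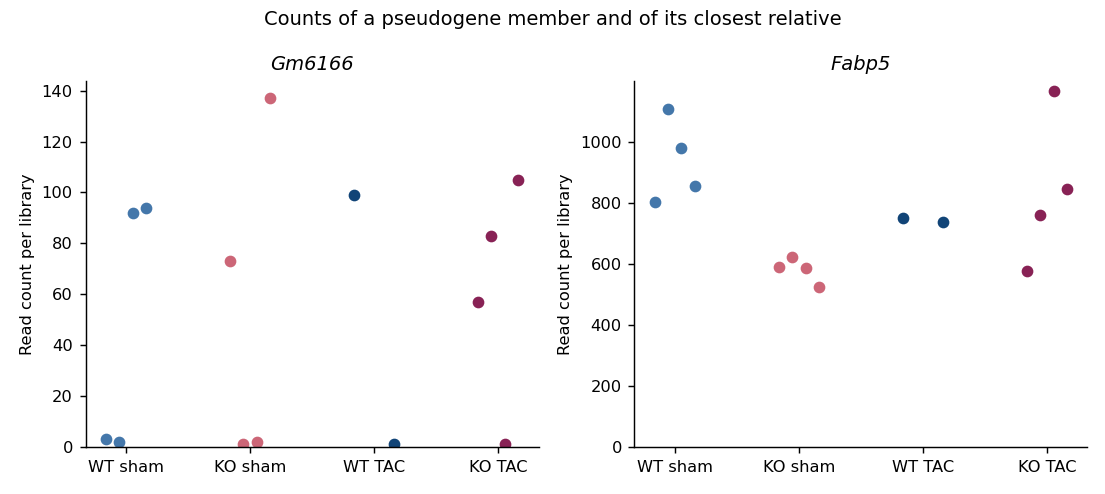
Read counts per library of the pseudogene Gm6166 (left) and of Fabp5 (right) in 4 WT sham, 4 KO sham, 2 WT TAC and 4 KO TAC libraries, axes from 0. Gm6166 is either at 3 reads or fewer or at 57 or more, with both states in all 4 groups, and Fabp5 is between 524 and 1166 in all libraries.

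Other genes of the stretch share sequence or position as well. Rplp1, Imp3, Pkm, Psma4, Gm6166 and Gm24270 have a copy elsewhere that is at least 95% identical over at least 50% of their length, so their counts are uncertain. Gm49759 lies within Pkm on the same strand, and 87.2% of its reads and 14.4% of those of Pkm were ambiguous. Exons of 25 of the 80 genes overlap those of a gene on the opposite strand, Cul5, Cd276 and Edc3 among them. The ambiguous share of these 25 was 0.15% at most.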

How the data were processed

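Heart RNA was profiled in 14 libraries. Per the labels' protocols, polyadenylated RNA was made into strand-specific libraries. The builds mm10 and GRCm38 and the tools STAR 2.4.2a, Picard 2.10.3 and bcl2fastq 2.17.1.14 are named in the submitters' processing notes. The authors deposited raw read counts for each gene, with separate coding and untranslated parts per the file headers. For the counter's version, annotation and strand setting, no source used here gives a value.

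Of 51912 identifiers, 51633 were matched to GENCODE M21 (GRCm38) for symbols and positions. Reads outside annotated features (10.7% to 19.0% of reads) and ambiguous reads entered no test. Counts per library ranged from 11385818 to 20369637. No pair of libraries within a group looked like a repeated deposit (lowest chi-square per degree of freedom 3.43), and each was counted as a replicate, although separate animals are not shown by this. The filter filterByExpr (minimum count 10) left 15651 genes. Tests used edgeR 4.0.16 in R 4.3.3 (quasi-likelihood, TMM scaling, 1 coefficient per group), adjusted by Benjamini-Hochberg over all genes. The untranslated share was tested with limma 3.58.1 on log2((untranslated + 1)/(coding + 1)). DESeq2 1.42.0 was an alternative. Procedures were tested on simulated data. The GC correction subtracts from each library a smooth curve (lowess, span 0.2) of log2 deviations on transcript GC content. Promoters are RefSeq windows (GRCm38.p6).

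The genes, role lists and tests were chosen with earlier results of these data known. Genes named with values were those called between genotypes, the 5 nearest Clk3 on each side, those without overlap in both surgeries, the 5 of smallest p in each direction and genotype for TAC, and 2 of smallest p per role list. Replicate numbers name samples and pair nothing. A gene named by this rule is not reported here.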

Additional observations from a re-analysis of the deposited data

Results flagged for a closer look

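In 3 cases a named gene had 1 library far from the other 3 of its group, among 96 groups of 4 examined over 32 genes, where chance alone flags about 1 group in 20. Arid3b was at 7.62 CPM in wild-type sham 2 and at 5.18 or less in the other wild-type sham libraries. Dnaja4 was at 175 CPM in knockout sham 2, against 192 to 194. Ireb2 was at 101 CPM in the same library, against 94.4 to 95.6.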

How the results depend on the processing

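Over both surgeries, 9 genes passed, and alternatives other than leaving out a library gave 6 to 12, except the 10-week libraries alone (3). In sham, where 3 passed, DESeq2 called 7, and the 10-week libraries (10 at an unadjusted p under 0.05 by edgeR) and the GC correction called 0. After TAC, where 3 passed (232 of 15651), DESeq2 and no filter on low counts each called 5 (467 of 15911 and 525 of 29798). A fit to the groups compared called 1 (60 of 14899). For TAC in wild type, where 11 passed, the fit to the groups compared called 5, age as a covariate 6, the 10-week libraries 5 and the share of reads outside features as a covariate 5. For TAC in knockout, where 11 passed, these gave 17, 2, 0 and 0, and the GC correction 7. With distance limits of 0.5 and 2 Mb the nearest and the middle class held 2 calls each, and with the GC correction the farthest held 3.

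Leaving out 1 library gave 0 to 6 in sham, 1 to 4 after TAC, 6 (without wild-type TAC 2) to 13 (without wild-type sham 1) over both, 0 in the test of the surgery dependence, 5 to 11 for TAC in wild type and 3 to 14 in knockout. The median absolute difference ranged from 0.108 to 0.167 in sham and 0.111 to 0.183 after TAC. Calls within 1 Mb ranged from 3 to 6, from 1 to 2.5 Mb from 0 to 2 and beyond from 3 to 5, and the untranslated share stayed at 0. Among the genes called between genotypes or with TAC, no direction reversed under any alternative run. Of the 11 TAC calls in wild type, 4 (Dnaja4, Itga11, Lman1l and Pstpip1) held in all alternatives, and of the 11 in knockout none did, 3 (Dnaja4, Hexa and Lman1l) holding with each library left out. These checks of single TAC calls were chosen after the data were seen. The cause of these changes was not tested. No paired analysis was possible because the sample numbers in the labels are unique to each library and shared by no groups. With 2 wild-type TAC libraries, differences after TAC are the least precise.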
